A study of Homo sapiens with 12 samples.

Results

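The aldo-keto reductases described here were 8 genes, AKR1A1, AKR1B1, AKR1B10, AKR1C1, AKR1C2, AKR1C3, AKR1D1 and AKR7A2, taken by gene symbol from a table of 16705 genes. Expression was measured by RNA sequencing in human liver spheroid co-cultures of C3A cells, a clone of the HepG2 hepatoma line with hepatocyte-like functions, and LX-2 cells, an immortalized line of activated hepatic stellate cells. Spheroids were left untreated or were exposed to 1% total parenteral nutrition (TPN), a clinical feed that combines glucose, a lipid emulsion, electrolytes and amino acids with vitamins and trace elements, for 24 h or 144 h. The 12 libraries formed 4 groups of 3 (untreated and TPN at 24 h, and untreated and TPN at 144 h), each library pooling many spheroids of the same 2 cell lines. The study describes independent experiments and the labels give only replicate numbers, so p values measure the spread between these libraries, which may be partly technical. Both are single immortalized lines, and untreated spheroids were kept to the same time points as the exposed ones.

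Aldo-keto reductases are cytosolic enzymes that use NADPH to reduce aldehydes and ketones to alcohols. In liver they clear reactive aldehydes from lipid peroxidation, reduce drugs and sugars, and convert steroids and bile acid precursors. AKR1B1 is aldose reductase, the first enzyme of the polyol pathway, and AKR1B10 is a related enzyme with high activity toward retinal and lipid aldehydes that is often abundant in liver tumours. AKR1C1, AKR1C2 and AKR1C3 are hydroxysteroid dehydrogenases that also reduce lipid aldehydes and quinones, AKR1D1 is the steroid 5-beta-reductase needed for bile acid synthesis, AKR1A1 is aldehyde reductase, and AKR7A2 reduces aflatoxin dialdehyde and succinic semialdehyde. AKR1B10 and the AKR1C genes are known in human cells as targets of NRF2, a transcription factor that responds to electrophiles and oxidants.

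Each member is listed with its NCBI gene number and its place on GRCh38.p13. The AKR1C genes lie side by side on chromosome 10, AKR1C1 (gene 1645) at chr10:4952949-4983283, AKR1C2 (gene 1646) at chr10:4984947-5018031 and AKR1C3 (gene 8644) at chr10:5048781-5107686. Chromosome 7 holds AKR1B1 (gene 231) at chr7:134442350-134459284, AKR1B10 (gene 57016) at chr7:134527567-134543083 and AKR1D1 (gene 6718) at chr7:138044343-138118305. AKR1A1 (gene 10327) lies at chr1:45550779-45570051 and AKR7A2 (gene 8574) at chr1:19298257-19312146.

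The AKR1C genes share much of their sequence, which bears on how their reads could be told apart. In GENCODE v44, the coding sequences of AKR1C1 and AKR1C2 were identical at 953 of 972 aligned columns (98.0%), and 51.8% of their windows of 50 bases occurred unchanged in both. AKR1C3 was 91.5% identical to AKR1C1 and 91.0% identical to AKR1C2, with 14.6% and 18.3% of such windows in common. AKR1B1 and AKR1B10 were 76.1% identical and shared no window of 50 bases, and neither did any remaining pair of members. The levels of AKR1C1, AKR1C2 and AKR1C3 therefore rest in part on how RSEM divided shared reads.

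**Figure D1:**
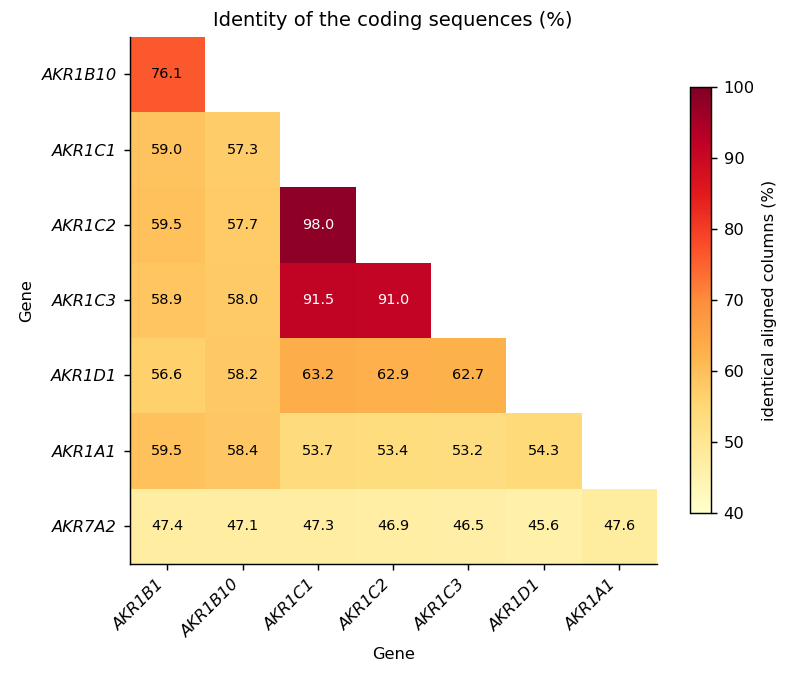
Identity of the coding sequences of the 8 genes in percent of aligned columns, for the principal transcript of each gene in GENCODE v44, with both axes listing genes. The 3 AKR1C genes form a block of 91.0% to 98.0%, AKR1B1 and AKR1B10 reach 76.1%, and AKR7A2 is the most distant from all others at 45.6% to 47.6%.

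The near identity extends to the sequence just before the start of transcription. The RefSeq table (GRCh38.p14) held windows for 7 of the 8 members, AKR1B10 being the exception. The 250 bases before the start of the principal transcript are shown for the 3 AKR1C genes, whose transcripts are compared most closely here, and for AKR7A2, the member with matches to the response element named next. They run 5′ to 3′ on the strand of the gene, with capitals marking matches on either strand to TGACNNNGC, the core of the antioxidant response element bound by NRF2, or to CCAAT, a common promoter box, and no printed window held both motifs. Coordinates are chr10:4963165-4963414 on the plus strand for AKR1C1, chr10:5003858-5004107 on the minus strand for AKR1C2, chr10:5094164-5094413 on the plus strand for AKR1C3 and chr1:19312145-19312394 on the minus strand for AKR7A2.
AKR1C1: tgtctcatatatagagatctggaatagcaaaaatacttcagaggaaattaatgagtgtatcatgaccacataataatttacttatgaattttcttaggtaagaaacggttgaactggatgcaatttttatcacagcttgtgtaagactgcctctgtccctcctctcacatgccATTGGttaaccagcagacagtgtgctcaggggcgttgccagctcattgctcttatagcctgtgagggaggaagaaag
AKR1C2: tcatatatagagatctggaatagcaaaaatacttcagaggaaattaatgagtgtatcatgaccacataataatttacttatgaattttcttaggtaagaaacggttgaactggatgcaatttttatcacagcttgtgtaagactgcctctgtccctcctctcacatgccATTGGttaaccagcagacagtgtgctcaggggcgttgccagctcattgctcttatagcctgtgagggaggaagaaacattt
AKR1C3: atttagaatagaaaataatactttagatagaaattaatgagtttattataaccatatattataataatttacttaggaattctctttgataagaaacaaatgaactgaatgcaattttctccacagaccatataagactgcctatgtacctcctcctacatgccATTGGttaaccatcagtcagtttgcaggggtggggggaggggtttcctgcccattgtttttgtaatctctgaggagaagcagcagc
AKR7A2: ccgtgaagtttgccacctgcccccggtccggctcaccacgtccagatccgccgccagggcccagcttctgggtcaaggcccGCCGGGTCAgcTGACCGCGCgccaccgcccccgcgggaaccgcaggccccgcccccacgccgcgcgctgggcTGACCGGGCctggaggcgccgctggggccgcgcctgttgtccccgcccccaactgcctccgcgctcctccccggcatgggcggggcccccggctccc
AKR1C1 and AKR1C2 shared an unbroken run of 245 bases in these windows, and AKR1C3 was identical to them at 69.2% and 69.8% of aligned columns. A second AKR1C3 window, chr10:5048531-5048780 on the plus strand, ends where the listed span of the gene begins and is not printed. It was 71.4% identical to AKR1C1 and 69.6% identical to AKR1C2. All 3 printed AKR1C windows held the CCAAT box, read here as ATTGG. TGACNNNGC was found in AKR7A2, which held 3 matches (TGACCGCGC, TGACCGGGC and, on the other strand, TGACCCGGC), and in no window of the other 6 members. Over the 35116 RefSeq promoter windows of 300 bases (250 before and 50 after the start), 13.3% held TGACNNNGC and 34.6% held CCAAT. A match here is a match of letters, and elements outside these windows were not examined.

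Values are FPKM, in which the fragments of a gene are divided by the length of its transcripts and the depth of the library, which puts the levels of genes on a scale per length. The isoform lengths that RSEM used are not given in the sources used here, and the principal transcripts in GENCODE v44 have 6543 bases for AKR1C1, 3215 for AKR1C2 and 1186 for AKR1C3. The level of AKR1C1 relative to other members, and with it its rank, ratios, share and gain in FPKM, therefore depends on the isoforms assumed. Libraries summed to 561657 to 583722 FPKM, and about 1.8e+07 fragments per library were estimated from the steps of low values in 79 short genes. All 8 members passed the filter of a mean of at least 0.5 FPKM, as did 11713 genes in all, which were compared as log2(FPKM + 0.1) with limma. A differentially expressed gene (DEG) passed an adjusted p of 0.05 and differed by more than 0.58 on the log2 scale, the thresholds of the study. The sum of 10 hepatocyte markers lay between 10082 and 13804 FPKM in every library, with CYP7A1 below 1 FPKM. The sum of 10 stellate cell markers lay between 174.6 and 238.0 FPKM, with DES, the gene of desmin, below 1 FPKM in all groups. In RNA from whole spheroids, fewer cells of a type and less RNA per cell cannot be told apart.

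AKR1B10 and the 3 AKR1C genes were higher in TPN-exposed than in untreated spheroids at both times, while AKR1A1, AKR1B1, AKR1D1 and AKR7A2 did not pass the test at 24 h. At 24 h, 3 of the 8 members were DEGs, all higher with TPN, against 0.914% of the 11713 genes tested, and 4 rose when only an adjusted p below 0.05 was required, against 10.5%. At 144 h, 4 members were DEGs, all higher, against 9.48% of genes, and by adjusted p alone 5 rose and 2 fell, against 52.5%. Over the members the median change on the log2 scale was 0.26 at the early and 0.55 at the late time, beside -0.0045 and -0.018 over all genes. Exposed and untreated libraries did not overlap for 4 members at 24 h (29.9% of all genes) and for 7 members at 144 h (57.3%). The members were chosen with earlier results of these data known, so these counts and medians are no independent evidence of their direction.

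**Figure D2:**
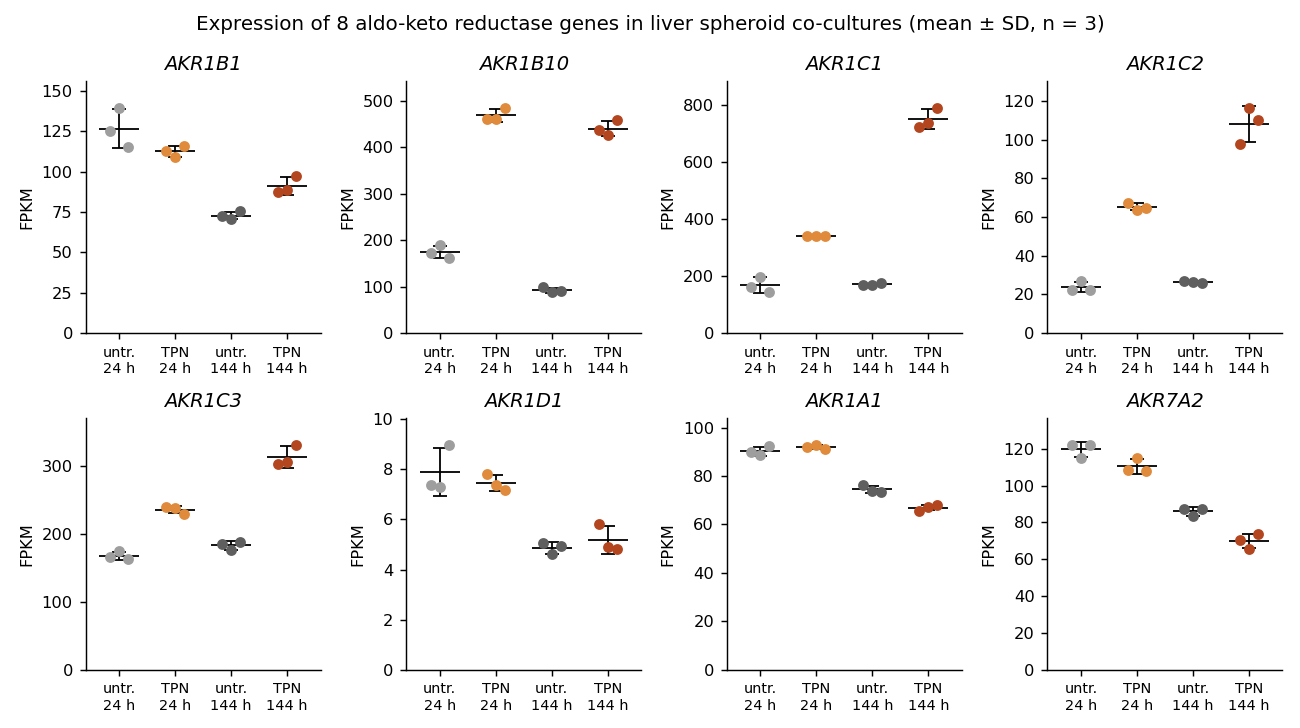
Expression of the 8 genes in each library, with FPKM on a linear vertical axis that starts at 0 and the 4 groups on the horizontal axis. Points are libraries, dashes are group means and bars are SD (n = 3). AKR1B10, AKR1C1, AKR1C2 and AKR1C3 are higher in all exposed libraries than in all untreated libraries of the same time point, whereas AKR1A1, AKR1B1, AKR1D1 and AKR7A2 are highest at 24 h.

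Among the AKR1B genes, AKR1B10 had the larger response. Its level in the 3 untreated libraries at 24 h was 171.3, 188.5 and 162.0 FPKM, and in the TPN libraries 461.2, 459.8 and 483.9 FPKM. At 144 h the untreated libraries had 98.2, 87.4 and 89.6 FPKM and the TPN libraries 436.4, 425.2 and 457.4 FPKM. No exposed library came near an untreated one at either time. Mean AKR1B10 was 2.69-fold higher with TPN at 24 h, with a log2 fold change of 1.43 (SE 0.054, adjusted p = 9.65e-10). The difference at 144 h was 4.79-fold, with a log2 fold change of 2.26 (SE 0.054, adjusted p = 1.82e-12). It ranked 11 among the 11713 genes by log2 fold change at 24 h and 22 at 144 h.

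AKR1B1, the aldose reductase gene next to AKR1B10 on chromosome 7, had 125.4, 139.4 and 115.3 FPKM in untreated libraries at 24 h and 112.6, 108.8 and 116.1 FPKM with TPN, and these ranges overlapped. Its log2 fold change at 24 h was -0.17 (SE 0.059, adjusted p = 0.0958), and it turned on single untreated libraries of 24 h. Without the third, the lowest, it became -0.23 (adjusted p = 0.0209), and without the second, the highest, -0.096 (adjusted p = 0.326). At 144 h it had 72.2, 70.8 and 75.4 FPKM without and 87.7, 88.5 and 97.4 FPKM with TPN, and every exposed library was above every untreated one. This was a rise of 0.32 on the log2 scale (SE 0.059, adjusted p = 4.27e-04), below the threshold of a DEG. The ratio of AKR1B10 to AKR1B1 was 1.37 ± 0.028 in untreated and 4.16 ± 0.066 in exposed libraries at 24 h, and 1.26 ± 0.088 and 4.83 ± 0.14 at 144 h (SD, n = 3).

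AKR1C1, a hydroxysteroid dehydrogenase that inactivates progesterone, had 162.0, 197.9 and 143.5 FPKM in untreated libraries at 24 h and 341.6, 341.4 and 341.7 FPKM with TPN. The untreated libraries of 24 h were the most variable for this gene (coefficient of variation 16.5%), and the exposed libraries of 24 h were almost equal (0.0477%), a spread below the counting error estimated for any member in its lowest group (0.726% or more). At 144 h AKR1C1 had 169.9, 168.2 and 174.3 FPKM without and 725.4, 737.9 and 791.0 FPKM with TPN. The groups were apart at both times. The mean with TPN was 2.04-fold the untreated mean at 24 h (log2 fold change 1.04, SE 0.080, adjusted p = 1.76e-06) and 4.40-fold at 144 h (2.14, SE 0.080, adjusted p = 1.87e-10). AKR1C1 gained 580.7 FPKM at 144 h, more than any other member.

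AKR1C2, the close paralog that inactivates dihydrotestosterone, stood at a much lower level. Untreated libraries had 22.4, 26.8 and 22.3 FPKM at 24 h and 26.9, 26.6 and 26.0 FPKM at 144 h. Exposed libraries had 67.3, 63.7 and 64.8 FPKM at 24 h and 97.8, 116.3 and 110.3 FPKM at 144 h. All 6 exposed libraries lay above all 6 untreated ones. The log2 fold change was 1.45 at 24 h (SE 0.069, adjusted p = 1.05e-08), a 2.74-fold difference, and 2.02 at 144 h (SE 0.069, adjusted p = 6.84e-11), a 4.08-fold difference.

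AKR1C3, a prostaglandin F synthase that also forms testosterone, was as abundant as AKR1C1 in untreated spheroids and rose less. At 24 h it had 165.6, 173.8 and 163.2 FPKM without and 239.0, 237.0 and 229.1 FPKM with TPN. At 144 h the values were 185.2, 175.4 and 188.2 FPKM and 302.1, 305.1 and 330.7 FPKM. The groups again did not overlap. The log2 fold change of 0.49 at 24 h (SE 0.039, adjusted p = 2.35e-06) passed the p threshold but not that of the fold change, and that at 144 h was 0.77 (SE 0.039, adjusted p = 3.13e-09).

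The FPKM of AKR1C1, AKR1C2 and AKR1C3 were also summed, and because each is divided by its own transcript length, the sum still depends on how shared reads were assigned. It rose by 0.84 on the log2 scale at 24 h (95% CI 0.72 to 0.96, adjusted p = 2.87e-07) and by 1.62 at 144 h (95% CI 1.51 to 1.74, adjusted p = 6.27e-11). The ratio of AKR1C1 to AKR1C2, the pair with 98.0% identity, was 7.01 ± 0.51 in untreated and 5.23 ± 0.15 in exposed libraries at 24 h, and 6.45 ± 0.23 and 6.98 ± 0.56 at 144 h. The ratio of AKR1C1 to AKR1C3 was 0.999 ± 0.13 and 1.45 ± 0.033 at 24 h, and 0.934 ± 0.022 and 2.40 ± 0.014 at 144 h. AKR1C1 was thus close to AKR1C3 in untreated spheroids and above it in every exposed library, while its ratio to AKR1C2 lay between 5.07 and 7.42 in all 12 libraries. What part read sharing and the isoform lengths had in these ratios was not tested.

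AKR1D1, the bile acid enzyme, was the least abundant member. It had 7.38, 7.29 and 8.98 FPKM in untreated and 7.81, 7.38 and 7.16 FPKM in exposed libraries at 24 h, and 5.05, 4.61 and 4.92 FPKM and 5.83, 4.91 and 4.82 FPKM at 144 h. The groups overlapped at both times. The log2 fold change with TPN was -0.07 at 24 h (95% CI -0.26 to 0.11, adjusted p = 0.669) and 0.09 at 144 h (95% CI -0.10 to 0.28, adjusted p = 0.424). About 210 fragments per library lay behind its value in untreated spheroids at 144 h, for a counting error of 6.87%.

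The general aldehyde reductases AKR1A1 and AKR7A2 had small changes in the opposite direction. AKR1A1 had 90.1, 88.5 and 92.2 FPKM in untreated and 92.1, 92.9 and 91.3 FPKM in exposed libraries at 24 h, a log2 fold change of 0.03 (SE 0.027, adjusted p = 0.568). At 144 h it had 76.2, 73.9 and 73.6 FPKM without and 65.7, 67.1 and 68.0 FPKM with TPN, and fell by 0.16 on the log2 scale (adjusted p = 2.86e-04). Every exposed library of 144 h was below every untreated one. AKR7A2 had 121.9, 115.2 and 122.2 FPKM without and 108.7, 115.2 and 107.8 FPKM with TPN at 24 h (log2 fold change -0.12, SE 0.043, adjusted p = 0.112). At 144 h it had 87.4, 83.3 and 87.2 FPKM and 70.5, 65.7 and 73.7 FPKM, and fell by 0.30 (SE 0.043, adjusted p = 5.54e-05). Neither gene reached the fold change of a DEG.

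Hepatocyte markers moved along with exposure. Their summed level was 11657 to 12010 FPKM in untreated and 10746 to 10787 FPKM in exposed libraries at 24 h, and 12842 to 13804 FPKM and 10082 to 10800 FPKM at 144 h. Of 9 markers tested, 4 fell at 24 h and 7 at 144 h, and over all genes 10.5% and 52.5% passed in either direction. ALB, which made up much of the sum, went from 6044 to 3863 FPKM at 144 h (-0.65 on the log2 scale, adjusted p = 4.69e-08). SERPINA1 had -0.03 at that time (adjusted p = 0.357), and FGB had 65.6 FPKM without and 68.2 FPKM with TPN. Stellate markers summed to 179.6 to 184.6 FPKM without and 174.6 to 178.1 FPKM with TPN at 24 h, and to 215.8 to 225.2 FPKM and 235.7 to 238.0 FPKM at 144 h, with 1 of 9 higher and 4 lower at 144 h. The stellate marker that rose was LOX, the largest part of that sum, from 146.4 to 165.6 FPKM at 144 h. COL1A1, among those that fell, went from 1.92 to 0.75 FPKM. The part of either cell type in the changes of the aldo-keto reductases was not tested.

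**Figure D3:**
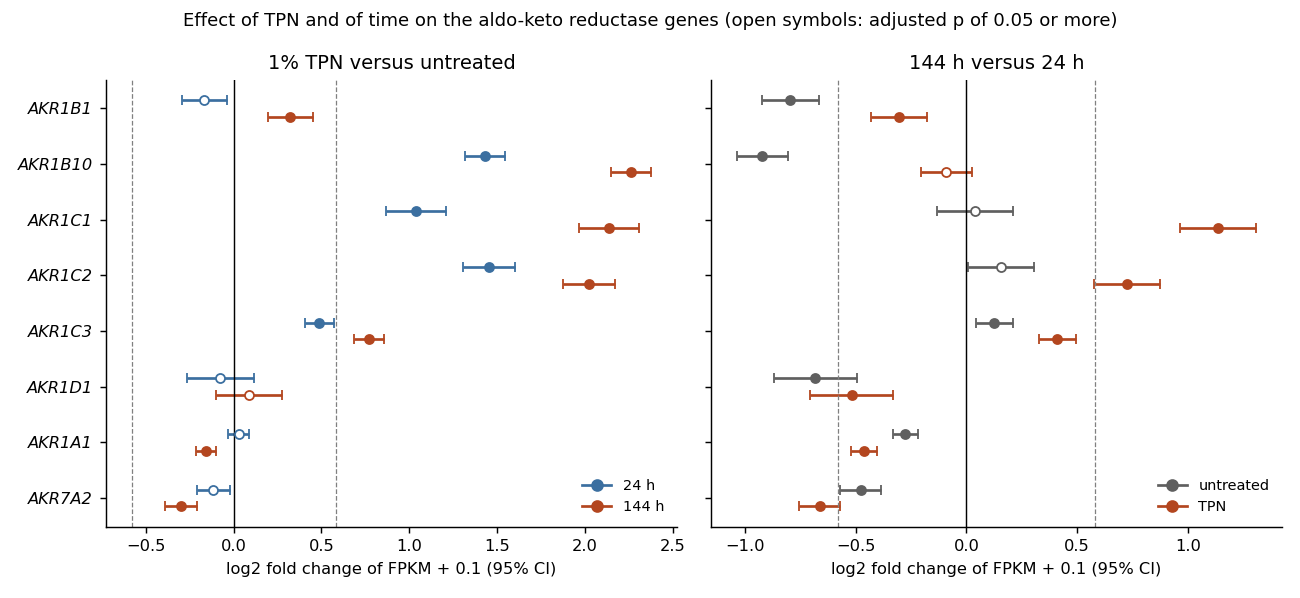
Log2 fold changes of FPKM + 0.1 with 95% confidence intervals from limma for the 8 genes, for TPN against untreated spheroids at both times (left) and for 144 h against 24 h in untreated and exposed spheroids (right). Filled symbols have an adjusted p below 0.05 and dashed lines mark 0.58. AKR1B10, AKR1C1 and AKR1C2 lie between 1.04 and 2.26 on the left, and the right panel separates AKR1C1, which rose by 1.14 with time in exposed spheroids, from AKR1B1 and AKR1B10, which fell in untreated spheroids.

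Whether the effect of TPN changed between 24 h and 144 h was tested as the difference of the log2 fold changes. By this test 2 members were DEGs, against 5.87% of genes, and in both the effect was larger at 144 h. By adjusted p alone 5 members had a positive and 2 a negative difference, against 30.4%. The difference was 1.10 for AKR1C1 (SE 0.11, adjusted p = 1.47e-05) and 0.83 for AKR1B10 (SE 0.076, adjusted p = 5.90e-06). It was 0.57 for AKR1C2 (adjusted p = 7.02e-04), just under the fold-change threshold, 0.49 for AKR1B1 (adjusted p = 6.88e-04) and 0.28 for AKR1C3 (adjusted p = 0.00181). These 5 genes were all relatively higher with TPN at the later time. For AKR1A1 the difference was -0.19 (adjusted p = 0.00260). For AKR7A2 it was -0.18 (adjusted p = 0.0346), which lost the p threshold in 8 alternatives, among them when the second exposed library of 24 h was left out (-0.15, adjusted p = 0.0847). AKR1D1 showed 0.16 (95% CI -0.10 to 0.43, adjusted p = 0.350).

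The same libraries, read along time, showed that the later difference arose in unlike ways for AKR1B10 and AKR1C1. The comparisons over time share their libraries with those of TPN and are not independent of them. In untreated spheroids AKR1B10 fell from 173.9 ± 13.4 to 91.8 ± 5.7 FPKM (SD, n = 3), a log2 fold change of -0.92 (SE 0.054, adjusted p = 3.66e-09), and in exposed spheroids it had 468.3 ± 13.5 and 439.7 ± 16.3 FPKM (-0.09, adjusted p = 0.135). AKR1C1 had 167.8 ± 27.7 and 170.8 ± 3.1 FPKM in untreated spheroids (0.04, adjusted p = 0.682) and rose from 341.6 ± 0.16 to 751.4 ± 34.8 FPKM in exposed spheroids (1.14, SE 0.080, adjusted p = 1.49e-08). For AKR1B10 the larger move was in the untreated level, and for AKR1C1 in the exposed level. The exposed AKR1B10 libraries of 24 h and 144 h did not overlap. With only the compared groups in the limma fit, their change passed the p threshold (-0.09, adjusted p = 0.0335).

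In untreated spheroids, 3 members were DEGs over time, all lower at 144 h, against 19.0% of genes, and by adjusted p alone 1 rose and 5 fell, against 72.6%. In exposed spheroids 2 members were DEGs upward and 1 downward, against 26.7%, and by adjusted p alone 3 rose and 4 fell, against 76.2%. Libraries of 24 h and 144 h did not overlap for 6 members in untreated spheroids (74.9% of genes) and for all 8 in exposed spheroids (77.9%). With such shares among all genes, these counts are no result about the members. Over all genes the median change was -0.18 in both comparisons over time, and scaling the libraries by the median ratio of their genes moved it to -0.01 in both, so each change of a member below is given with its value under that scaling.

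Besides AKR1B10, the untreated fall with time held AKR1B1, at -0.79 (adjusted p = 4.18e-08; -0.62 with median ratio scaling), and AKR1D1, at -0.68 (adjusted p = 8.88e-06; -0.51 and no longer a DEG). AKR1B10 itself had -0.75 with that scaling. AKR7A2 fell by 0.48 (adjusted p = 2.59e-07; -0.30 with the scaling) and AKR1A1 by 0.28 (adjusted p = 6.48e-07; -0.10). AKR1C3 rose by 0.13 (adjusted p = 0.0103; 0.30 with the scaling). AKR1C2 had 0.16 (adjusted p = 0.0535), which passed the p threshold in 7 alternatives. These were the scaling (0.33, adjusted p = 9.07e-04), quantile normalization (0.31, adjusted p = 0.00199), the replicate block (0.16, adjusted p = 0.0438), a mean of at least 5 FPKM (adjusted p = 0.0462), and leaving out the second untreated library of 24 h (0.24, adjusted p = 0.00221) or the first or second exposed library of 144 h (adjusted p = 0.0296 and 0.0428). For AKR1C1 leaving out the second untreated library of 24 h gave 0.16 (adjusted p = 0.00820), the scaling gave 0.21 (adjusted p = 0.0339), and leaving out the third untreated library turned the sign to -0.07. The direction of AKR1C1 over time in untreated spheroids was thus not settled.

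In exposed spheroids AKR1C2 rose with time by 0.72 (adjusted p = 3.17e-07; 0.90 with the scaling) and AKR1C3 by 0.41 (adjusted p = 3.58e-07; 0.59 with the scaling, then a DEG). AKR1C1 had 1.32 with the scaling. AKR7A2 fell by 0.66 (adjusted p = 6.00e-09; -0.48 and no longer a DEG), AKR1D1 by 0.52 (adjusted p = 9.72e-05; -0.34), AKR1A1 by 0.46 (adjusted p = 2.27e-09; -0.28) and AKR1B1 by 0.30 (adjusted p = 3.27e-04; -0.12, adjusted p = 0.0797). The sign of AKR1B10 depended on the scaling, at -0.09 as deposited and 0.09 with the median ratio.

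Stellate markers moved with time too. Of 9 tested, 7 fell and 1 rose in untreated spheroids, and the same numbers held in exposed spheroids, with list medians of -1.82 and -1.85. Over all genes 72.6% and 76.2% passed by adjusted p in these comparisons. At 144 h, 5 of the 10 listed markers in untreated and 6 in exposed spheroids were below 1 FPKM. The list medians thus rest in part on values near the floor. The marker that rose was LOX, at 56.6 FPKM at 24 h and 146.4 FPKM at 144 h in untreated spheroids, which raised the sum of the list, whereas COL1A1 went from 15.1 to 1.92 FPKM. Hepatocyte markers had 3 higher and 4 lower of 9 in untreated spheroids. These marker counts are from the values without that scaling. What part these shifts had in the changes of AKR1B1, AKR1D1 and the other members over time was not tested.

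The order of the members by level changed with exposure. In untreated spheroids at 24 h AKR1B10, AKR1C1 and AKR1C3 led with 173.9, 167.8 and 167.5 FPKM and overlapping replicates, followed by AKR1B1 and AKR7A2, which overlapped each other, then AKR1A1, AKR1C2 and AKR1D1. With TPN at 24 h AKR1B10, AKR1C1 and AKR1C3 were separate, at 468.3, 341.6 and 235.0 FPKM. In untreated spheroids at 144 h AKR1C3 led with 182.9 FPKM before AKR1C1 with 170.8 FPKM, then came AKR1B10, and AKR1A1 and AKR1B1 overlapped. With TPN at 144 h AKR1C1 led with 751.4 FPKM, AKR1C2 with 108.2 FPKM had passed AKR1B1, AKR7A2 and AKR1A1, and the last 2 of these overlapped. AKR1D1 was last in every group.

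Together the 8 genes summed to 877.7 ± 54.8 FPKM in untreated and to 1433 ± 8.1 FPKM in TPN-exposed libraries at 24 h, and to 710.1 ± 17.3 and 1845 ± 77.0 FPKM at 144 h (SD, n = 3). As a share of all FPKM in a library this was 0.155% ± 0.0098, 0.252% ± 0.0027, 0.124% ± 0.0020 and 0.320% ± 0.010. AKR1C1 supplied 19.0% ± 1.9 of the summed FPKM without and 23.8% ± 0.13 with TPN at 24 h, and 24.1% ± 0.44 and 40.7% ± 0.21 at 144 h. AKR1B10 supplied 19.8% ± 0.29, 32.7% ± 0.76, 12.9% ± 0.62 and 23.8% ± 0.46 in the same order. AKR1A1 and AKR7A2 went from 10.5% and 12.1% in untreated to 3.63% and 3.79% in exposed spheroids at 144 h, where their own levels differed far less than the total.

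**Figure D4:**
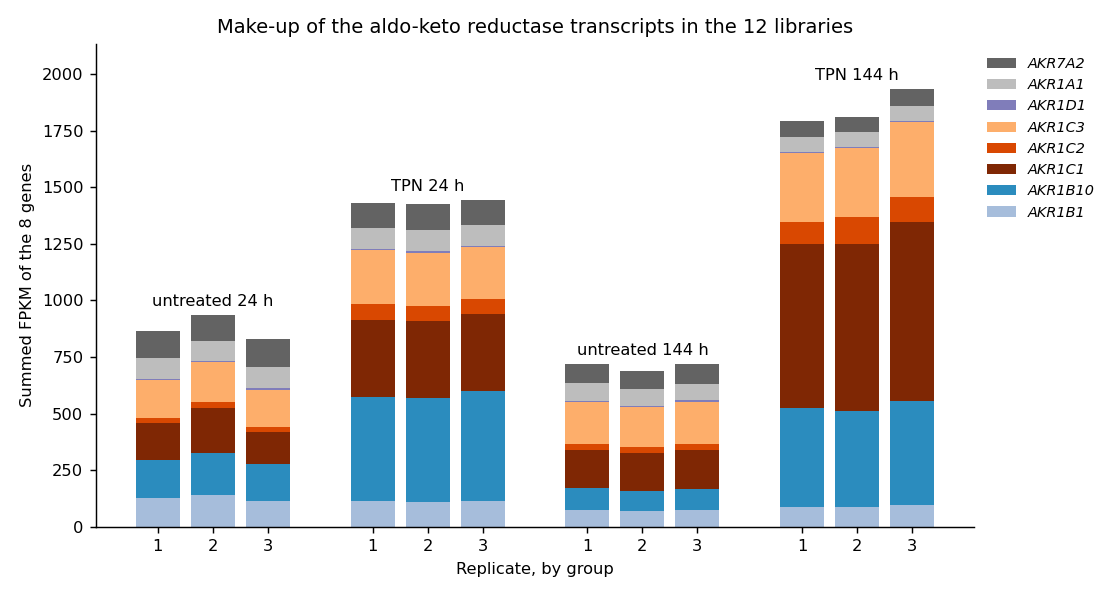
Summed FPKM of the 8 genes in each of the 12 libraries, stacked by gene on a linear axis that starts at 0, with replicates 1 to 3 within each group on the horizontal axis. The totals lie between 690.2 and 937.4 FPKM in untreated and between 1426 and 1933 FPKM in exposed libraries, and AKR1C1 forms the largest block in all 3 exposed libraries of 144 h.

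Other genes of the family, from a list of 9, were mostly low. The table held 6 of them and 4 passed the filter. KCNAB2, a beta subunit of potassium channels with the aldo-keto reductase fold, had 21.9, 23.1 and 23.8 FPKM without and 24.2, 25.9 and 27.3 FPKM with TPN at 24 h, and 18.8, 18.0 and 18.8 FPKM and 29.6, 30.4 and 31.1 FPKM at 144 h. It rose by 0.17 on the log2 scale at 24 h (adjusted p = 0.0367) and by 0.71 at 144 h (adjusted p = 3.37e-08). AKR7A3, the neighbour and paralog of AKR7A2, had 1.03 to 1.34 FPKM in the group means, and AKR1B15, next to AKR1B10, had 0.597 to 0.873 FPKM, and neither passed the test with TPN. KCNAB3 did not pass it either (0.45 to 0.60 FPKM). AKR1C4, the liver-type member of the AKR1C cluster, was at 0.23 to 0.29 FPKM and KCNAB1 at 0.027 to 0.053 FPKM, both below the filter.

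Genes beside the members on the chromosome were read next, and over all genes 52.5% passed with TPN at 144 h by adjusted p. Whether a whole locus moved was not tested. NET1, the nearest tested gene beyond the AKR1C cluster at 304871 bases, had a log2 fold change with TPN of -0.06 at 24 h (adjusted p = 0.275) and fell by 0.52 at 144 h (adjusted p = 3.52e-08), where the AKR1C genes rose. SLC35B4, on the far side of AKR1B1, fell by 0.37 at 144 h (adjusted p = 0.00140). AKR1B15, 6027 bases beyond AKR1B10 and at a mean of 0.69 FPKM, had 0.47 at 144 h (adjusted p = 0.183). Its exposed and untreated libraries of that time did not overlap. PRDX1, a peroxidase gene 27807 bases from AKR1A1, rose by 0.37 and NASP on the other side fell by 0.36 at 144 h, with adjusted p values of 2.58e-07 and 2.92e-07. SLC66A1, whose listed span begins 152 bases from that of AKR7A2, rose by 0.46 (adjusted p = 1.88e-06) where AKR7A2 fell. AKR7A3, on the other side of AKR7A2, had 0.16 (adjusted p = 0.496). Beside AKR1D1, CREB3L2 fell by 0.20 (adjusted p = 0.00175) and TRIM24 by 0.25 (adjusted p = 7.05e-05).

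Lists of related genes put these changes beside the pathways the members belong to. Over all genes tested, 10.5% passed by adjusted p with TPN at 24 h and 52.5% at 144 h, and 0.914% and 9.48% were DEGs. Of 24 targets of NRF2 outside the family, 23 were tested, and all 23 rose at both times by adjusted p, 11 as DEGs at 24 h and 19 at 144 h, with median log2 fold changes of 0.56 and 0.98. The ferritin heavy chain gene FTH1 went from 1827 to 2591 FPKM at 24 h and from 1602 to 3924 FPKM at 144 h (log2 fold change 1.29, adjusted p = 6.06e-13). FTL, the ferritin light chain gene, rose by 0.39 and 0.93, PRDX1 by 0.14 and 0.37, and the quinone reductase gene NQO1 by 0.63 and 0.95. The list was compiled with earlier results of these data known and is not independent evidence of its direction.

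NRF2 itself and its regulators gave a more mixed picture, with 4 of 7 higher and 1 lower at 24 h and 6 higher and 1 lower at 144 h (10.5% and 52.5% of all genes passed). The gene that fell was NFE2L2, which encodes NRF2, from 97.4 to 78.5 FPKM at 24 h and from 101.8 to 77.2 FPKM at 144 h (log2 fold changes -0.31 and -0.40, adjusted p = 1.95e-05 and 1.93e-07). KEAP1, the adaptor that directs NRF2 to degradation, rose by 0.29 and 0.39. MAFG, a small MAF partner of NRF2, rose by 0.31 and 0.53. CUL3, the scaffold of the ligase, rose at 144 h by 0.13 (adjusted p = 0.00657).

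Enzymes of other families that act on carbonyls and aldehydes did not move as one group. Of 17 tested, 5 were higher with TPN and 2 lower at the early time, against 10.5% of all genes, and the numbers at 144 h were 7 and 7, against 52.5%. ALDH1A1, a retinal dehydrogenase, rose from 263.1 to 326.1 FPKM at 24 h and from 151.4 to 221.8 FPKM at 144 h (0.31 and 0.55 on the log2 scale). DCXR, a xylulose reductase, fell by 0.19 and 0.47, and ADH5, the formaldehyde-clearing alcohol dehydrogenase, fell by 0.21 at 144 h. ALDH1B1 rose by 0.10 and 0.30.

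AKR1B1 opens the polyol pathway. Of 7 genes tested of this pathway and of osmolyte transport, 3 were higher with TPN at 24 h, and 2 were higher and 2 lower at 144 h. Over all genes 10.5% and 52.5% passed at these times, so the count at 144 h is no result about this list. SORD, sorbitol dehydrogenase, the enzyme after AKR1B1, rose by 0.14 at 24 h (adjusted p = 0.0469) and had 0.05 at 144 h (adjusted p = 0.382). The taurine transporter gene SLC6A6 rose by 0.41 and 1.24 (adjusted p = 0.00407 and 2.56e-08). KHK, ketohexokinase, and TKFC, which acts after it, fell at 144 h by 0.31 and 0.34.

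AKR1D1 belongs to bile acid synthesis, where by limma 0 of 9 genes tested passed at 24 h (2 at an unadjusted p below 0.05), and 2 higher and 2 lower genes were found at 144 h. With 10.5% and 52.5% of all genes passing at these times, these counts are no result about this list. CYP27A1, sterol 27-hydroxylase, fell by 0.18 at 144 h (adjusted p = 0.00319) and HSD17B4 rose by 0.11 (adjusted p = 0.0159), while SCP2 and HSD3B7 did not pass at either time. Other genes named as steroid reductases or hydroxysteroid dehydrogenases had 1 lower of 10 tested at 24 h and 1 higher and 6 lower at 144 h. Of these, 1 higher and 1 lower gene were DEGs at 144 h. Beside the same 10.5% and 52.5% of all genes, these counts are no result about this list either. Whether their enzymes share substrates with the AKR1C enzymes in these cells was not tested. HSD17B7, HSD17B10, HSD17B11 and HSD17B12, the 4 most abundant genes of this list, fell by 0.36, 0.23, 0.20 and 0.17 at 144 h, where AKR1C1, AKR1C2 and AKR1C3 rose. For HSD17B12 the exposed and untreated libraries overlapped (adjusted p = 0.0326).

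**Figure D5:**
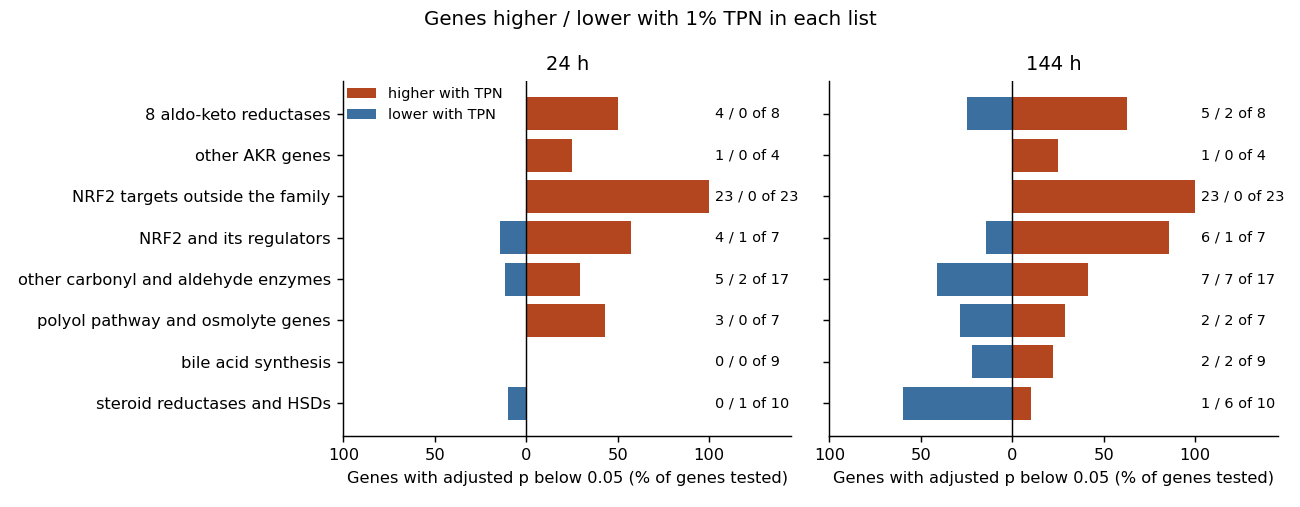
Share of the tested genes of each list with an adjusted p below 0.05 from limma, higher (right of 0) or lower (left of 0) with 1% TPN, in percent of genes tested, at 24 h and 144 h. Numbers at the right of each bar are genes higher and lower of genes tested, and HSD stands for hydroxysteroid dehydrogenase. The 23 NRF2 targets are all higher at both times, and the list of steroid reductases has 6 of 10 genes lower at 144 h. Over all genes tested, 10.5% passed in either direction at 24 h and 52.5% at 144 h.

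The genes whose pattern over the 12 libraries was most like that of each member were found by the Pearson correlation of log2(FPKM + 0.1), given as a description because the 12 points share 4 groups. AKR1C2 was closest to SQSTM1 (r = 0.997), OSGIN1 (0.990) and GCLC (0.988), 3 genes of the NRF2 list. That list was compiled with earlier results of these data known. All 23 of its tested genes rose with TPN at both times, so this likeness is no separate evidence. AKR1C1 was closest to SRC (0.990), GPAT3 (0.989) and AKR1C3 (0.988), and AKR1C3 to GPAT3 (0.994), TKT (0.991) and GCLC (0.990). AKR1B10 was closest to CLDN4 (0.994), B4GALNT1 (0.990) and IKBKG (0.989). AKR1B10 correlated with AKR1C1 at 0.820 and with AKR1C2 at 0.870, less than the AKR1C genes with one another (0.980 to 0.988). The AKR1C genes can share reads, and what part this had in their correlations was not tested.

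The 4 remaining members had patterns shared by more genes, though AKR1B1 less so than the other 3. Correlations of at least 0.9 were held with 2997 genes by AKR1A1, 2746 by AKR7A2, 1417 by AKR1D1 and 457 by AKR1B1. The numbers were 179 for AKR1C1, 149 for AKR1C3, 125 for AKR1B10 and 107 for AKR1C2. These values were not scaled by the median ratio, and its effect on the numbers was not tested. AKR1A1 was closest to CNN3, DLAT and TOMM22 (0.995, 0.994 and 0.994). AKR7A2 was closest to SCLY, APEH and TUBB4B (all 0.996), and it correlated with AKR1A1 at 0.972. AKR1D1 was closest to AIDA, TECTB and MED6 (0.982, 0.981 and 0.981). AKR1B1 was closest to TMEM127, ADGRG1 and PPA2 (0.978, 0.972 and 0.971).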

How the data were processed

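RNA from untreated and TPN-exposed spheroids was sequenced in 12 libraries. Per the study, read filtering used SOAPnuke (v1.5.2), alignment to GRCh38.p13 used HISAT2 (v2.0.4), alignment to transcripts used Bowtie2 (v2.2.5) and quantification used RSEM (v1.2.8). The FPKM deposited by the authors were taken as they are, with 20 lines of overflowing annotation left out and no further scaling. RSEM divides reads that match several transcripts, so levels of near-identical genes depend on that division. Whether libraries kept the strand is not given in the sources used here. FPKM cannot be tested as counts, so log2(FPKM + 0.1) of the 11713 genes with a mean of at least 0.5 FPKM was fitted in limma 3.58.1 (R 4.3.3) with 4 group means and an intensity trend, with Benjamini-Hochberg adjustment over all genes in each of 5 comparisons. The fit was tested on simulated data.

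Depth was estimated with transcript lengths of GENCODE v44. On a transcript of 2000 bases, 1 fragment is worth 0.0320 FPKM, the filter 15.6 fragments and the pseudocount 3.13 fragments, and intervals cover replicate spread only. The lowest group mean of a member rested on about 1300 to 2800 fragments per library, except AKR1D1 (210) and AKR1C1, for which it depends on the isoform. Deviations from group means correlated at -0.083 to 0.15 between same-numbered libraries (median 0.046, 5 of 18 over 0.1) and at -0.24 to 0.11 between others (median -0.016, 2 of 36 over 0.1). Same-numbered libraries were thus slightly more alike. The main fit was not paired because not every same-numbered pair was over 0.1, a strict bar that cannot exclude pairing. The replicate block was an alternative.

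Named were the 8 members, other family genes, up to 3 genes of most similar pattern for each member, the nearest tested gene on each side of a locus within 500000 bases and the 4 most abundant genes of each list. Members and lists were chosen with earlier results of these data known. Alternatives changed the pseudocount, filter, scaling, trend, fold-change threshold, replicate block and libraries in the fit, and left out each library in turn. Coding sequences were aligned with Biopython 1.88, and tables and figures were made in Python 3.11.15 (matplotlib 3.10.9, pandas 2.3.3, numpy 2.4.6, scipy 1.17.1). Protein sequences and the other assays of the study were not used here.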

Additional observations from a re-analysis of the deposited data

Results flagged for a closer look

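In 7 of the 8 genes the response to TPN was not the same at both times, by limma's test of the difference itself. Later minus earlier log2 fold change was 1.0982 for AKR1C1, 0.8297 for AKR1B10, 0.5674 for AKR1C2, 0.4904 for AKR1B1, 0.284 for AKR1C3, -0.1838 for AKR7A2 and -0.1851 for AKR1A1. Across all genes tested, 30.4% passed the same threshold. The difference for AKR7A2 lost the p threshold in several alternatives, such as limma without the trend (adjusted p = 0.0704). For AKR1B1 the estimate was -0.17 at 24 h, which did not pass the test, and 0.32 at 144 h. For AKR1A1 it was 0.03, which did not pass either, and -0.16. A reversal of the effect was thus not shown for AKR1B1 or AKR1A1.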

How the results depend on the processing

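The 3 and 4 members called with TPN at 24 h and at 144 h, and the rise of the summed AKR1C level (0.78 to 0.92 at 24 h, 1.45 to 1.65 at 144 h), kept their direction and side of the threshold in every alternative that kept both thresholds. Without the fold-change threshold 7 members passed at 144 h, 7 in the difference between the times, 6 over time in untreated and 7 over time in exposed spheroids. Leaving out each library in turn gave 2 to 3 members for the difference between the times, where AKR1C2 crossed 0.58, and 3 to 4 over time in exposed spheroids. It moved AKR1C1 over time in untreated spheroids between -0.0683 and 0.164, and AKR1D1 with TPN at 24 h between -0.127 and 0.0213. AKR1B10 over time in exposed spheroids reversed from -0.0913 to 0.0896 with median ratio scaling. That scaling also turned the split of DEGs over time from 796 higher and 1434 lower to 1219 and 657 in untreated spheroids, and from 1114 and 2009 to 1646 and 1079 in exposed spheroids, and quantile normalization gave 1054 and 783, and 1398 and 1378. With the replicate block, AKR1C2 over time in untreated spheroids passed the p threshold (0.16, adjusted p = 0.0438), and the members called with TPN stayed at 3 and 4. The numbers mark no stated batch.

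The DEGs among all genes numbered 107 at 24 h and 1110 at 144 h. They came to 58 and 698 with a pseudocount of 1, to 59 and 523 with a mean of at least 5 FPKM, and to 1230 and 6144 without the fold-change threshold. For the difference between the times 687 became 435, 282 and 3565 in the same order. Over time 2230 and 3123 became 1337 and 2029 with the stricter filter and 8498 and 8925 without the fold-change threshold.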
